A study of Mus musculus with 22 samples.

Results

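The Kcn genes encode the subunits of potassium channels, and 64 of them were followed here across visual cortex libraries of mice whose vision had been altered in different ways. They were all rows whose symbol starts with Kcn and whose mean level over the 21 libraries was above 0.5 FPKM, a level per transcript length and library depth. Kcnj10 and Kcnj16, the established astrocyte inward rectifiers, were left out together with 4 antisense or noncoding entries. Of 98 Kcn symbols among 24537 genes, 92 remained before the level rule, and 28 of those were at or below it, 9 of them listed at 0 in every library. Kcnj8, with a mean of 0.495 FPKM, was the first gene outside the rule, and Kcnu1, with 0.638 FPKM, was the last inside. The level rule uses inputs and pulldowns together, so a gene can be a member through its input alone. In the pulldowns, 57 of the 64 members averaged above 0.5 FPKM and 7 did not.

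All mice were C57BL/6J and carried GFAP-cre line 73.12 with the RPL22-HA allele, under which cells with Cre activity make ribosomes that carry an HA tag. After perfusion with 1% formaldehyde the visual cortex was dissected, tagged ribosomes were captured with an antibody to HA, and polyadenylated RNA was sequenced. Input RNA came from tissue without capture. The pulldowns were 3 libraries from cortex contralateral and 3 from cortex ipsilateral to an eye closed for 2 days, at postnatal day 28, then 4 from mice reared in the dark, at day 45. A further 3 came from mice kept 10 days in the dark, at day 120, and 3 from normally reared mice at day 45. Each of the 5 groups had 1 input. The series calls its samples biological replicates, but the labels tie no library to an animal, so p-values measure the spread between these libraries. GFAP-cre is a driver used for astrocytes, and what else it marks shows in the markers. Of the cell type markers, all 10 astrocyte genes were enriched in the pulldown, at pulldown-to-input ratios of 5.18 to 11.3. The 10 neuron markers lay at 0.0568 to 0.304, the 4 interneuron markers at 0.0191 to 0.0452, the 10 microglia markers at 0.0676 to 0.231 and the 5 endothelial markers at 0.160 to 0.241. The 6 oligodendrocyte markers lay at 0.936 to 3.25, the 4 oligodendrocyte precursor markers at 1.52 to 2.79, and the 4 mural markers above the level rule at 0.0931 to 3.54.

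Potassium channels set the resting potential and end the action potential. Voltage-gated pore subunits (Kcna, Kcnb, Kcnc, Kcnd, Kcnq, Kcnh) open on depolarization, silent subunits (Kcnf, Kcng, Kcns, Kcnv) modify them, and auxiliary subunits (Kcnab, Kcnip, Kcne, Kcnmb) tune their gating. Inward rectifiers (Kcnj) and 2-pore-domain channels (Kcnk) pass current near rest, and the calcium-activated (Kcnma, Kcnn) and sodium-activated (Kcnt) channels follow the ions that enter during activity. Astrocytes have a large resting potassium conductance and take up potassium that active neurons release.

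Promoters are shown for the 3 members with the highest pulldown-to-input ratio and for the member with the lowest. They are the 300 bases from 250 before to 50 after the gene start in RefSeq (GRCm38.p6), on the gene's own strand, 5′ to 3′. Capitals mark the motif matches found. Kcne1l lies at chrX:142306149-142306448 (minus strand), Kcng4 at chr8:119635631-119635930 (minus), Kcnn3 at chr3:89519914-89520213 (plus) and Kcnc2 at chr10:112270871-112271170 (plus).
Kcne1l: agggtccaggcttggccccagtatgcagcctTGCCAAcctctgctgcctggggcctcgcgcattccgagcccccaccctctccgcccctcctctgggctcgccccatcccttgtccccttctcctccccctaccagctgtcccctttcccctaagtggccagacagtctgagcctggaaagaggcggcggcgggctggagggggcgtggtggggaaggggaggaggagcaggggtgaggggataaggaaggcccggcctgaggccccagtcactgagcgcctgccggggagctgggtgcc
Kcng4: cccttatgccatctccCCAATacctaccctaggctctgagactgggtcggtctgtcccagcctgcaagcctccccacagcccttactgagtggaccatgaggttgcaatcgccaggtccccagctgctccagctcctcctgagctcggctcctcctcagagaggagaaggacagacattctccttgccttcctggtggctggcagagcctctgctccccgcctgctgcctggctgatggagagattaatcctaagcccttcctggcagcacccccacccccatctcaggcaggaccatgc
Kcnn3: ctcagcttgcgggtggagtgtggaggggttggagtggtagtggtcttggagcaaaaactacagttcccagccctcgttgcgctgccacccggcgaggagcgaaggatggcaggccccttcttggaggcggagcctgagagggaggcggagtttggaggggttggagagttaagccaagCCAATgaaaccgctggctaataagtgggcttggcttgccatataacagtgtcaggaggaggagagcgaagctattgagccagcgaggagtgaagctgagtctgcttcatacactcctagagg
Kcnc2: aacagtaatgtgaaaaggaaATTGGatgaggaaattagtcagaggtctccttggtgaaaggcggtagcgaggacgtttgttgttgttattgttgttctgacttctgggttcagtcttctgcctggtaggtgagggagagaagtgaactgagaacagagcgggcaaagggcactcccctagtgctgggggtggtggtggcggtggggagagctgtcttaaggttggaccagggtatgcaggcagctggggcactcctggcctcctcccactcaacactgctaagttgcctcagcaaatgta
These 4 windows were 69.7%, 61.3%, 57.7% and 52.7% GC, beside a median of 52.7% over 32851 RefSeq promoters of the same length. The Kcne1l window held 12 CpG and the Kcnc2 window held 5, beside a median of 7. The capitals are 1 NFI half-site (TTGGCA, read on the other strand) in Kcne1l and 1 CCAAT box in each of the other windows, on the other strand in Kcnc2. NFI half-sites were in 14.1% of all promoters and CCAAT in 37.4%. The SOX core ACAAAG (18.7% of all promoters), the CRE half-site TGACG (20.8%) and the RE1 half-site TTCAGCACC (0.371%), searched on both strands, had no match in these windows. Over the 43 members with a RefSeq promoter, the NFI half-site was in 1 of 6 with a ratio above 1 and in 2 of 37 with a ratio below 1. CCAAT was in 2 of 6 and 12 of 37, the SOX core in 0 of 6 and 4 of 37, the CRE half-site in 0 of 6 and 8 of 37, and the RE1 half-site in none of either set. The RefSeq start of Kcne1l lay 96 bases from that of the transcript in the table. For 12 members with a ratio below 1 it lay farther than 250 bases, at 322 to 239105 bases. Without them the 25 left with a ratio below 1 held the NFI half-site in 1, CCAAT in 7, the SOX core in 2 and the CRE half-site in 4. A match is a run of letters and not a shown binding site.

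The first comparison was of pulldown with input, which ranks the members by how far they were captured with tagged ribosomes. Only 8 of the 64 members were higher in pulldown: Kcne1l, Kcng4, Kcnn3, Kcnj14, Kcnk1, Kcnn2, Kcnip3 and Kcnk10. Lower in pulldown were 52, among them the voltage-gated Kcnc, Kcnb and Kcna genes, and 4 passed no test, among them Kcnk2, Kcnk13 and Kcnd1. The test was limma on log2(FPKM + 1), with Benjamini-Hochberg adjustment over 13240 genes at 0.05. Over all genes, 25.4% were called higher and 51.5% lower (76.8% either way), so most members followed the larger share of the table. The median log2 fold change was -1.76 over the members and -0.32 over all genes. Pulldown-to-input ratios, computed without a pseudocount from the mean of the 5 group means over the mean of the 5 inputs, had a median of 0.191. Kcne1l was the only member at or above the lowest astrocyte marker, 47 members lay within the range of the neuron markers, and 1, Kcnc2, lay below it. The 8 members stood above 1 in all 5 groups, 52 stood below 1 in all 5, and 4 fell on both sides.

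**Figure D1:**
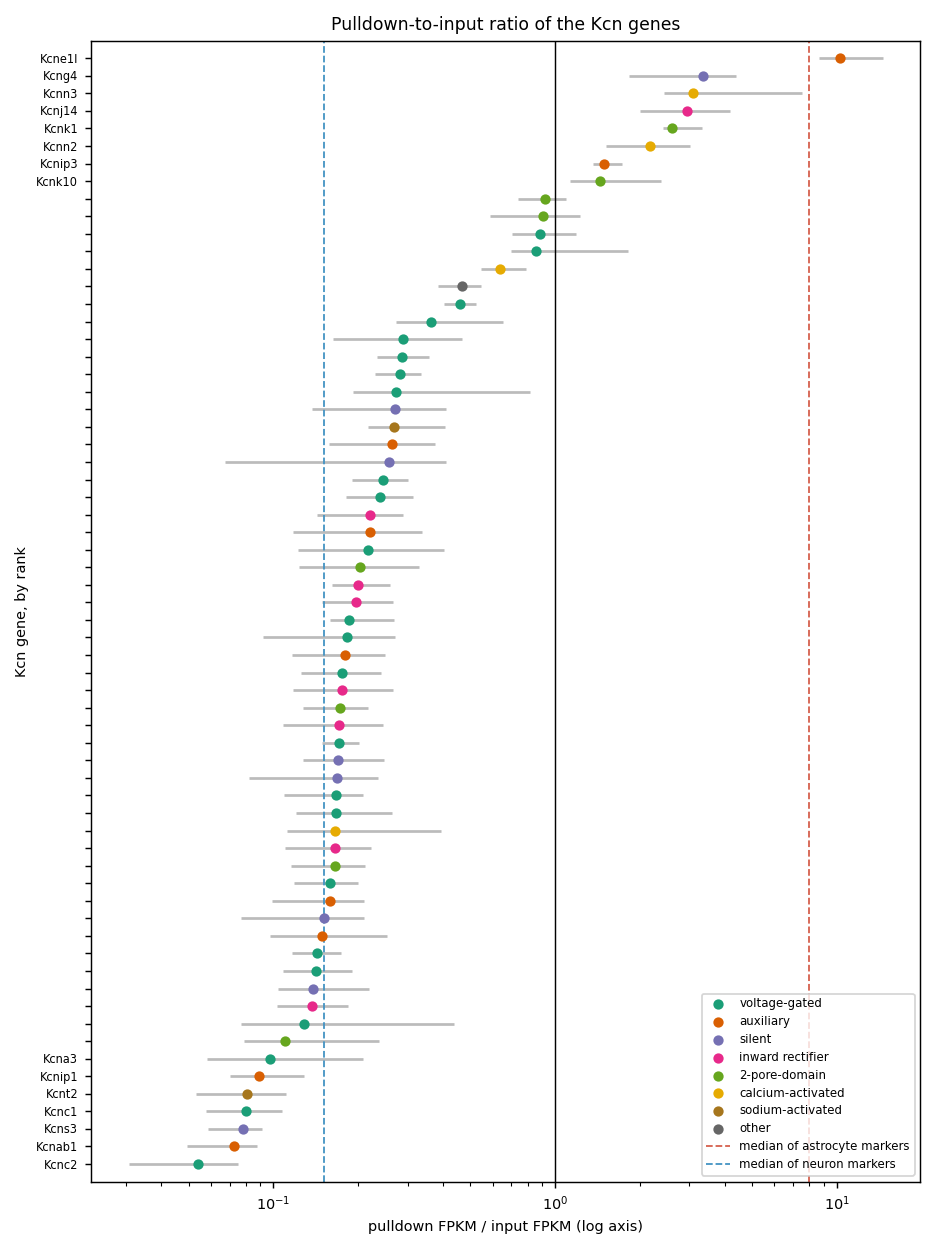
Pulldown-to-input ratio of each of the 64 Kcn members on a log axis, ordered by ratio and coloured by role, with names for ratios above 1 or below 0.1, with a grey line from the lowest to the highest of the 5 groups and dashed lines at the median of the astrocyte markers (7.96) and of the neuron markers (0.151). Kcne1l at 10.3 is the only member with a ratio above the astrocyte median, and most members lie around the neuron median.

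The auxiliary subunits ran from the highest ratio of all members to the second lowest. Kcne1l, also known as Kcne5, encodes a single-pass accessory subunit of the KCNE family, which lowers voltage-gated currents in expression systems. Its level was 19.1 to 32.1 FPKM in the 16 pulldowns with a median of 24.4, against inputs of 2.6 (contralateral), 3.0 (ipsilateral), 3.5 (dark-reared), 1.6 (dark-exposed) and 1.5 FPKM (normally reared). Every pulldown was above every input, and its log2 fold change was 2.94 ± 0.10 (SE; limma adjusted p = 2.1e-15). Kcnip3, the calcium-binding protein also called calsenilin or DREAM, was second in level, with 71.7 to 102.9 FPKM in the pulldowns (median 82.8), against inputs of 59.5, 68.7, 47.2, 57.1 and 51.6 FPKM in the same order of groups. Its ranges did not touch although its ratio was only 1.49 (log2 fold change 0.58 ± 0.09, limma adjusted p = 9.5e-06). The other 7 auxiliary members were lower in pulldown, from Kcnab2, the beta subunit of Kcna channels, at a ratio of 0.263, to Kcnab1 at 0.0723. Kcnab1 had 0.4 to 3.0 FPKM in the pulldowns (median 1.2), against inputs of 18.6, 15.5, 16.2, 25.9 and 22.4 FPKM. Kcnip1, of the same calcium-binding family as Kcnip3, had a ratio of 0.0892.

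Among the 8 2-pore-domain leak channels 2 were higher in pulldown, 4 were lower and 2 were not called. Kcnk1, a weakly rectifying channel studied as a carrier of the passive conductance of mouse astrocytes, had the highest level of all members. It stood at 84.5 to 163.4 FPKM in the pulldowns (median 126.9), against inputs of 44.7, 53.5, 54.2, 40.3 and 38.9 FPKM. Every pulldown exceeded every input, with a log2 fold change of 1.36 ± 0.12 (limma adjusted p = 1.8e-09). Kcnk10, a stretch-sensitive channel of the TREK group, was low at 1.3 to 2.3 FPKM in the pulldowns (median 1.75), against inputs of 1.1, 1.1, 0.8, 1.3 and 1.7 FPKM. Its ranges overlapped, and its log2 fold change was 0.32 ± 0.09 (limma adjusted p = 0.0030). Kcnk2, of the same TREK group, reached higher levels of 7.9 to 25 FPKM in the pulldowns (median 22.8), against inputs of 19.7, 20.1, 21.9, 19.9 and 21.7 FPKM. It was not called (-0.20 ± 0.21), and its sign turned to 0.08 under quantile normalization and 0.15 under median-ratio scaling. Kcnk9 and Kcnk3, the acid-sensitive leak channels, were among the lower ones at ratios of 0.11 and 0.173.

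The calcium-activated channels were the group with the highest median ratio, 1.40 over 4 members. Kcnn3 and Kcnn2 encode small-conductance channels that open with intracellular calcium. Kcnn3 had 2.4 to 10.4 FPKM in the pulldowns (median 6.05), against inputs of 2.2, 2.0, 0.9, 2.0 and 2.6 FPKM. The lowest pulldown fell below the highest input, and the log2 fold change was 1.20 ± 0.24 (limma adjusted p = 0.00014). Kcnn2 had 17.0 to 63.1 FPKM in the pulldowns (median 31.3), against inputs of 15.8, 15.7, 11.7, 13.0 and 14.9 FPKM. Its ranges did not overlap (0.99 ± 0.22, limma adjusted p = 0.00036). Kcnma1, the large-conductance channel, was lower at a ratio of 0.166. Kcnn1 was lower at 0.639, a call that was lost under both other scalings.

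The inward rectifiers and silent subunits each had 1 member higher in pulldown and 7 lower. Kcnj14, a strong inward rectifier, had 1.3 to 2.6 FPKM in the pulldowns (median 1.45), against inputs of 0.6, 0.8, 0.5, 0.4 and 0.4 FPKM, without overlap (0.75 ± 0.10, limma adjusted p = 6.8e-07). Its level was small beside the excluded Kcnj10, at 281.7 FPKM in pulldown against 44.8 FPKM in input, and Kcnj16, at 55.4 FPKM in pulldown against 8.50 FPKM in input. The ratios of those genes were 6.27 and 6.47, above every member except Kcne1l. Kcng4 encodes a silent subunit that forms channels only with Kcnb subunits. It had 2.9 to 10.8 FPKM in the pulldowns (median 6.45), against inputs of 1.7, 2.1, 2.2, 1.9 and 1.8 FPKM, without overlap (1.28 ± 0.15, limma adjusted p = 2.2e-07). The lowest of the silent subunits was Kcns3, with 0.1 to 0.4 FPKM in the pulldowns (median 0.20), against inputs of 2.6, 2.2, 3.4, 2.7 and 2.3 FPKM. Kcnj3, a subunit of G-protein-gated channels, was lowest of the inward rectifiers at a ratio of 0.137.

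All 24 voltage-gated pore subunits had a ratio below 1, and 22 of them were called lower. Kcnc2 was the lowest of all 64 members. Kcnc1 and Kcnc2 encode fast delayed rectifiers known from fast-spiking interneurons. Kcnc2 had 0.3 to 2.7 FPKM in the pulldowns (median 0.75), against inputs of 16.2, 13.4, 19.6, 23.5 and 23.3 FPKM. Its ratio was 0.0538 and its log2 fold change -3.35 ± 0.14 (limma adjusted p = 6.7e-14). Kcnc1 had 0.8 to 3.6 FPKM in the pulldowns (median 1.5), against inputs of 23.2, 21.8, 14, 27.0 and 26.8 FPKM. The remaining members of the lowest 12 included Kcna3 at 0.0971, Kcnh7 at 0.129 and Kcnh1 at 0.142, and the sodium-activated Kcnt2 at 0.0808. Kcnd1, an A-type subunit, was not called. Kcnd1 had 1.8 to 3.7 FPKM in the pulldowns (median 2.75), against inputs of 3.4, 2.9, 2.7, 3.3 and 2.9 FPKM. Its pulldowns reached both above and below the inputs.

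Pulldowns of all members outside inputs were counted as well. In 6 members every pulldown was above every input (13.9% of all genes) and in 43 every pulldown was below every input (28.9% of all genes). The 7 enriched members other than Kcne1l had ratios of 1.44 to 3.36, below the lowest astrocyte marker and beside the ratios of the oligodendrocyte and precursor markers given above. The part of those cells in the members' ratios was not tested. The summed level of the members was 510.8 FPKM in pulldown and 1179.4 FPKM in input. The 8 members with a ratio above 1 made up 54.6% of that sum in pulldown and 10.6% in input. Kcnk1 alone was 23.9% of the pulldown sum, and 10 members averaged above 10 FPKM in pulldown while 15 averaged below 1 FPKM. In the inputs the highest members were Kcnab2, Kcnmb4, Kcnj4, Kcnip2, Kcnip3 and Kcnh3. Kcnmb4, the brain beta subunit of the large-conductance channel, had 9.9 to 29.4 FPKM in the pulldowns (median 17.1), against inputs of 78.2, 97.1, 103.3, 71.0 and 59.4 FPKM. Exons of 22 members, Kcnmb4, Kcnk1 and Kcnn2 among them, overlap a gene on the opposite strand in GENCODE. Whether counting used strand is not given in the sources used here.

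**Figure D2:**
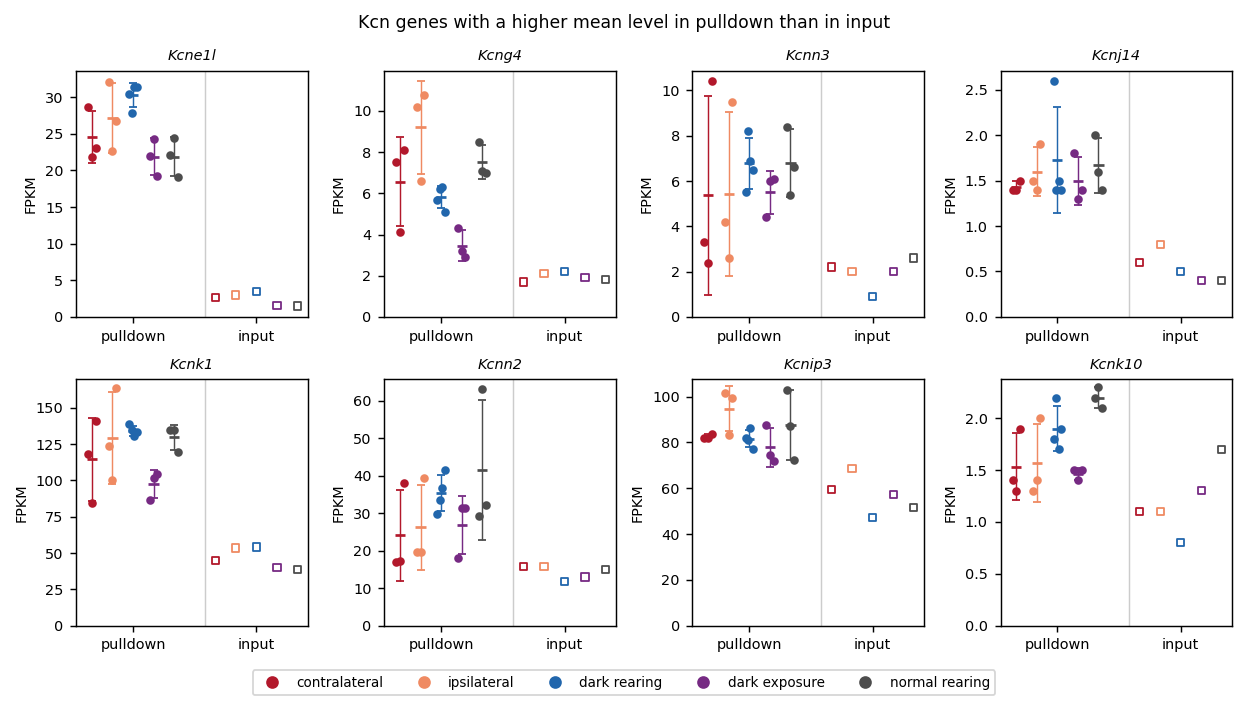
Level in FPKM of each of the 8 members with a pulldown-to-input ratio above 1, with pulldown libraries as points on the left and the single inputs as open squares on the right, coloured by group, and bars for the mean and SD of each pulldown group. The pulldown mean is above its input in every group, and Kcnn3 spreads most within the monocular groups.

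Potassium handling outside the Kcn genes was read from a list of 27 genes, of which 24 were tested. In pulldown 5 were higher and 17 lower (median log2 fold change -1.64, beside -0.32 for all genes). Higher were 4 of 8 sodium pump genes, led by Fxyd1, the pump regulator phospholemman, at 316.9 FPKM in pulldown against 38.2 FPKM in input (log2 fold change 3.03 ± 0.19, limma adjusted p = 1.3e-11). Lower were 3 of 3 tested HCN channels, which carry the hyperpolarization-activated cation current. Hcn3 stood at 0.863 FPKM in pulldown against 3.44 FPKM in input (-1.23 ± 0.08). Of the 9 tested channel partners 8 were lower, with Lrrc55, a gamma subunit of the large-conductance channel, at 0.969 FPKM in pulldown against 8.10 FPKM in input (-2.25 ± 0.17). Of 4 cation chloride cotransporters 1 was higher and 2 were lower.

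Dark rearing at day 45 was then set against normal rearing at the same age, which asks whether growing up without vision changed the members in the pulldown. No member passed the adjusted threshold in limma, where 0.00755% of all genes did (1 gene). At an unadjusted p under 0.05 there were 20 of 64 members, against 5.66% of all genes. The log2 fold change was negative for 56 of 64 members and for 8784 of 13240 genes, with a median of -0.41 beside -0.08 for all genes. In 17 members all dark-reared libraries were below all normally reared ones (8.72% of all genes), and in Kcne1l alone all were above (2.43% of all genes). Among the 6 members with the smallest p were Kcne1l, Kcnk3, Kcnc1 and Kcnv1, each with an adjusted p of 0.840.

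Kcnv1, a silent subunit, had 0.9, 2.0, 1.7 and 1.8 FPKM in dark-reared pulldowns, against 2.5, 3.6 and 9.7 FPKM in normally reared pulldowns. The third normally reared library stood far above the other two, and the log2 fold change was -1.12 ± 0.43. Kcnc1 had 1.1, 1.2, 1.3 and 1.3 FPKM in dark-reared against 1.6, 1.9 and 3.4 FPKM in normally reared pulldowns (-0.53 ± 0.20), and Kcnk3 had 0.7, 0.9, 0.9 and 0.9 FPKM in dark-reared against 1.1, 1.6 and 2.0 FPKM in normally reared pulldowns (-0.46 ± 0.16). The 2 groups did not overlap in any of these genes, and the differences did not pass the adjustment. Kcne1l stood the other way round, with 30.4, 27.9, 31.4 and 31.4 FPKM in dark-reared pulldowns, against 22.1, 24.4 and 19.1 FPKM in normally reared pulldowns (0.46 ± 0.15). In the single inputs it had 3.5 FPKM in dark-reared against 1.5 FPKM in normally reared cortex. The 10 astrocyte markers summed to 2047.1 FPKM in the dark-reared against 1389.5 FPKM in the normally reared input. In the pulldowns they summed to 15390 to 16710 FPKM in dark-reared against 13811 to 15572 FPKM in normally reared libraries. Their part in the Kcne1l values was not tested.

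The members with a ratio below 1 were set beside the neuron markers. Their summed level was 142.7, 191.9, 172.8 and 185.2 FPKM in dark-reared pulldowns, against 207.2, 236.7 and 399.6 FPKM in normally reared pulldowns. The 10 neuron markers summed to 269.4, 432.0, 350.9 and 440.7 FPKM in dark-reared pulldowns, against 447.6, 659.1 and 1249.7 FPKM in normally reared ones. All 10 were negative (median log2 fold change -0.84), and none was called. The 4 interneuron markers summed to 7.0 to 12.2 FPKM in dark-reared against 6.6 to 13.2 FPKM in normally reared pulldowns. Without the third normally reared library 1 member was at an unadjusted p under 0.05 (1.56% of members, 1.47% of all genes), and the median was -0.22 over the members and -0.05 over all genes. Without dark-reared library 1 it was 6 members (9.38%, against 2.5% of all genes), at a median of -0.34. Without dark-reared libraries 4, 5 and 6 in turn it was 19 members (29.7%, against 5.34% of all genes), 11 members (17.2%, against 3.58%) and 13 members (20.3%, against 5.16%). The count rose to 28 members without normally reared library 1 (43.8%, against 9.86%) and to 23 without library 2 (35.9%, against 4.93%). Quantile normalization moved the median of all genes to 0.03, and 49 members were then negative with a median of -0.27. The part of neuronal RNA in these differences was not tested. In these pulldowns fewer cells of a type, less RNA per cell and less of its RNA carried through the capture cannot be told apart. In the inputs, with 1 library a group and no test, the same members summed to 897.6 FPKM in dark-reared against 1118.8 FPKM in normally reared cortex, while the neuron markers summed to 3473.1 FPKM in dark-reared against 3489.8 FPKM in normally reared cortex.

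**Figure D3:**
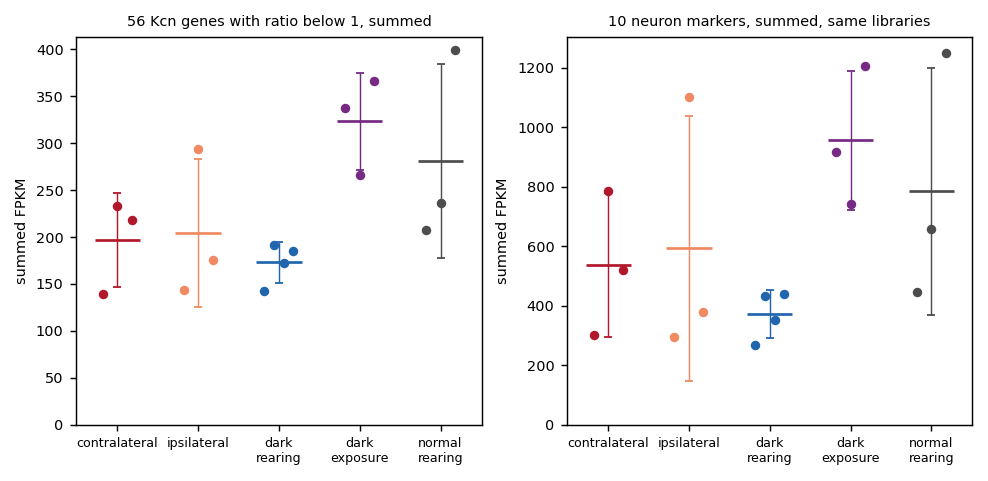
Summed FPKM of the 56 members with a ratio below 1 (left) and of the 10 neuron markers (right) in each pulldown library by group, with bars for mean and SD. The third normally reared library is highest of its group in both panels, at 399.6 and 1249.7 FPKM, and the monocular libraries numbered 2 are the highest of theirs.

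Closing an eye for 2 days at day 28 allowed the cortex contralateral to it to be set against the ipsilateral cortex. No member was called, and no gene of the table was (0% in both directions by limma). At an unadjusted p under 0.05 there were 0 members and 142 genes (1.07%). The log2 fold change was positive for 31 members and negative for 33, with a median of -0.01 beside -0.06 for all genes. Of 13240 genes, 4270 were positive and 8950 negative. All 8 members with a pulldown-to-input ratio above 1 were negative, with a median of -0.14, but none passed the test. Leaving out single monocular libraries, which leaves the library of the same number unmatched, turned up to 4 of them positive, and each other scaling turned 1. With the library number as a block all 8 stayed negative. Without both libraries numbered 2, 1 was positive and 7 were negative. The 6 members with the smallest p were Kcng4, Kcnj6, Kcnip3, Kcnk13, Kcnc4 and Kcnip1.

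Kcng4 had 7.5, 4.1 and 8.1 FPKM in contralateral pulldowns, against 10.2, 6.6 and 10.8 FPKM in ipsilateral pulldowns (-0.45 ± 0.22, adjusted p = 1 in limma). Within each number the contralateral library was the lower, although the groups overlapped. The SEs in this paragraph are from the fit without the number, which treats same-numbered libraries as independent. Kcnj6, a G-protein-gated subunit, had 1.3, 2.4 and 1.2 FPKM in contralateral against 0.4, 1.9 and 0.6 FPKM in ipsilateral pulldowns (0.47 ± 0.28). Kcnip3 had 82.1, 82.0 and 83.6 FPKM in contralateral against 101.5, 83.4 and 99.3 FPKM in ipsilateral pulldowns (-0.19 ± 0.15). No member was higher without overlap (0.264% of all genes), and Kcnip1 was the single member lower without it, at 1.1, 1.1 and 0.9 FPKM in contralateral against 1.2, 1.3 and 1.2 FPKM in ipsilateral pulldowns. Its gap was 1 rounding step of 0.1 FPKM, and 1.33% of all genes were lower without overlap. Kcnk13 and Kcnc4 differed by 0.19 ± 0.15 and -0.22 ± 0.19.

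In Kcnn3, Kcnn2 and Kcnk2, chosen after their values were seen, number 3 was above the other two in both hemispheres. Kcnn3 had 3.3, 2.4 and 10.4 FPKM in contralateral libraries 1, 2 and 3, against 4.2, 2.6 and 9.5 FPKM in ipsilateral libraries of the same numbers. Kcnn2 had 17.0, 17.2 and 38.0 FPKM in contralateral against 19.7, 19.6 and 39.4 FPKM in ipsilateral pulldowns. Kcnk2 had 10.4, 8.6 and 24.7 FPKM in contralateral against 13.0, 7.9 and 23.6 FPKM in ipsilateral pulldowns. Astrocyte marker sums were also highest at number 3, at 11786, 11769 and 15962 FPKM in contralateral against 12903, 12024 and 16602 FPKM in ipsilateral libraries. Number 2 was highest for the members with a ratio below 1, at 139.7, 233.2 and 218.0 FPKM in contralateral against 143.8, 294.1 and 175.0 FPKM in ipsilateral libraries. Neuron marker sums were 300.8, 784.5 and 521.4 FPKM in contralateral against 294.7, 1103.6 and 380.1 FPKM in ipsilateral libraries. What set these libraries apart was not tested. With the number as a block, 0 members and 0 genes were called, and 6 members were at an unadjusted p under 0.05 (9.38%, against 5.85% of all genes).

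Mice at day 120 after 10 days in the dark were set against normally reared mice at day 45. Age and darkness change together in this comparison and cannot be told apart. No member was called by limma, where 0.219% of all genes were higher (29 genes) and 0.0151% lower (2 genes). At an unadjusted p under 0.05 there were 6 members, against 4.65% of all genes. Without the third normally reared library there were 12 (18.8%, against 5.82% of all genes), and without the first there were 3 (4.69%, against 3.15%). In a fit of these groups alone there were 9 (14.1%, against 7.28% of all genes). The median log2 fold change was 0.10 over the members and 0.02 over all genes. Of 13240 genes, 7192 were positive and 6039 negative. Non-overlapping groups were seen for 4 members higher (Kcna3, Kcnip1, Kcnk13 and Kcnt1; 6.84% of all genes) and 4 lower (Kcna2, Kcng4, Kcnk1 and Kcnk10; 4.26% of all genes).

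Kcnk13, a 2-pore-domain channel known from mouse microglia, came closest to the threshold. It had 2.9, 3.0 and 2.9 FPKM in dark-exposed pulldowns, against 1.2, 1.2 and 1.8 FPKM in normally reared pulldowns. Its log2 fold change was 0.72 ± 0.15 (limma adjusted p = 0.066). Without the first contralateral library, which enters the shared spread alone, the adjusted p was 0.026, and over all libraries left out in turn it ran to 0.422. Microglia markers were higher in the same libraries. The 10 markers summed to 149.1, 87.5 and 97.6 FPKM in dark-exposed pulldowns, against 21.8, 36.7 and 29.7 FPKM in normally reared ones, and 8 of the 10 were called higher. Kcnk13 had a pulldown-to-input ratio of 0.904, above the highest microglia marker at 0.231. The inputs had 2.4 FPKM of Kcnk13 in dark-exposed against 1.4 FPKM in normally reared cortex, and their microglia sums were 372.0 FPKM in dark-exposed against 291.9 FPKM in normally reared cortex. The part of microglial RNA in the Kcnk13 difference was not tested.

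Kcng4 was next, with 4.3, 3.2 and 2.9 FPKM in dark-exposed pulldowns, against 8.5, 7.1 and 7.0 FPKM in normally reared pulldowns (-0.94 ± 0.22, limma adjusted p = 0.141). Its groups did not overlap, and the inputs showed 1.9 FPKM in dark-exposed against 1.8 FPKM in normally reared cortex. Without the second contralateral library its adjusted p was 0.043, and the highest value with a library left out was 0.713. Kcnk10 had 1.5, 1.4 and 1.5 FPKM in dark-exposed against 2.2, 2.3 and 2.1 FPKM in normally reared pulldowns (-0.38 ± 0.14). Kcnk1 had 86.6, 102.0 and 104.4 FPKM in dark-exposed against 135.0, 134.5 and 119.3 FPKM in normally reared pulldowns. Of the 8 members with a ratio above 1, 7 were negative with a median of -0.32, beside 10 of 10 astrocyte markers negative at a median of -0.22. The astrocyte markers summed to 12068, 14454 and 12751 FPKM in dark-exposed, against 15572, 15340 and 13811 FPKM in normally reared pulldowns. Their part in the members' values was not tested.

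On the other side, Kcnt1, the sodium-activated channel, had 3.6, 3.5 and 5.0 FPKM in dark-exposed pulldowns, against 1.9, 2.3 and 3.3 FPKM in normally reared pulldowns (0.53 ± 0.23). Kcnip1 had 1.4, 1.2 and 1.4 FPKM in dark-exposed against 0.6, 0.9 and 1.0 FPKM in normally reared pulldowns (0.35 ± 0.12). Kcnab2 had 54.7, 35.8 and 57.4 FPKM in dark-exposed against 18.8, 26.5 and 40.5 FPKM in normally reared pulldowns (0.80 ± 0.37), and its groups overlapped. Neuron marker sums were 918.6, 743.9 and 1205.6 FPKM in dark-exposed against 447.6, 659.1 and 1249.7 FPKM in normally reared pulldowns. All 10 neuron markers were positive at a median of 0.23 and none was called.

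**Figure D4:**
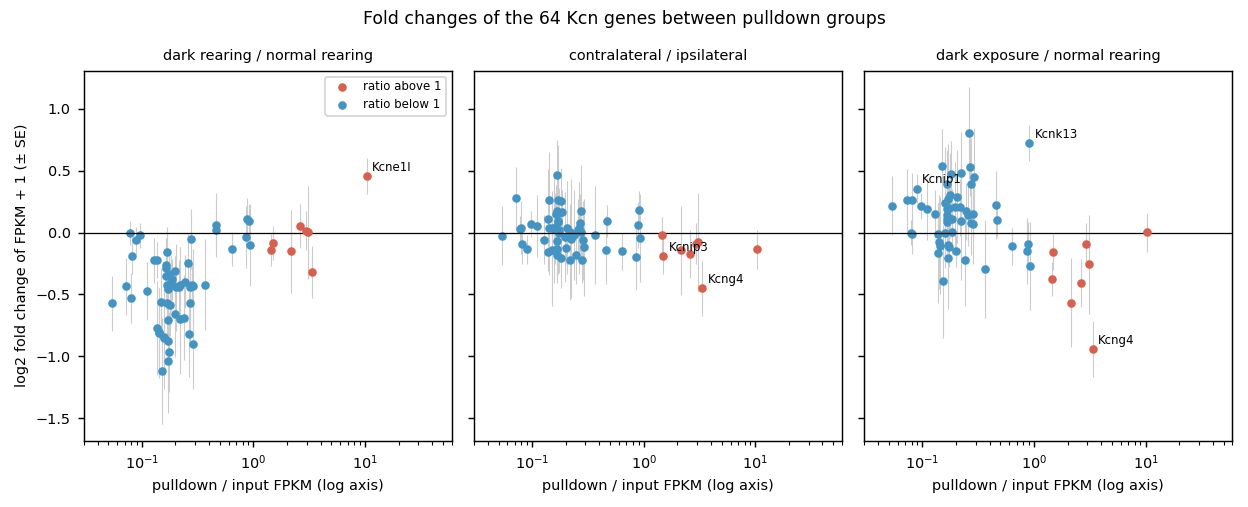
Log2 fold change of FPKM + 1 with its SE for each of the 64 members (y axis), against the pulldown-to-input ratio on a log axis (x axis), for dark rearing over normal rearing, contralateral over ipsilateral and dark exposure over normal rearing, with members of ratio above 1 in red and below 1 in blue. No member passes the adjusted threshold in any panel, and 56 of 64 members are negative after dark rearing, against 33 of 64 in the monocular comparison. Of 13240 genes, 8784 and 8950 are negative in these 2 comparisons.

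A test for any difference among the 5 pulldown groups called Kcnk13 alone among the members (limma F test, adjusted p = 0.0043), where 2.02% of all genes were called. The 5 groups differ in age and visual experience together, and the test treated same-numbered monocular libraries as independent. At an unadjusted p under 0.05 there were 21 members, against 15.4% of all genes. Kcnk13 averaged 1.03 ± 0.40 FPKM in contralateral, 0.767 ± 0.058 in ipsilateral, 1.55 ± 0.17 in dark-reared, 2.93 ± 0.06 in dark-exposed and 1.40 ± 0.35 FPKM in normally reared pulldowns (SD, n = 3, 3, 4, 3 and 3; the test is limma's). The 3 dark-exposed libraries were above all 13 others, while the dark-reared and normally reared libraries overlapped. Its inputs, 1 a group, were 1.1, 1.3, 2.3, 2.4 and 1.4 FPKM in the same groups. The contralateral input was below the ipsilateral one, the reverse of the pulldown means. All 10 microglia markers were also called in this test, and their sums were 24.0 to 37.0 FPKM in the dark-reared and monocular pulldowns. In the inputs the microglia markers summed to 361.6, 374.6, 594.9, 372.0 and 291.9 FPKM in the same order of groups, highest in dark-reared cortex. Kcng4 was next with adjusted p = 0.057, and its means were 6.57, 9.20, 5.83, 3.47 and 7.53 FPKM in the same order. Ipsilateral pulldowns were highest and dark-exposed pulldowns lowest. Kcnk3 followed with adjusted p = 0.076. Among the 24 tested genes of potassium handling outside the family, Amigo1, a partner of Kcnb channels, was called in this test (limma adjusted p = 0.033), and none was called in the 3 comparisons between pulldown groups.

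**Figure D5:**
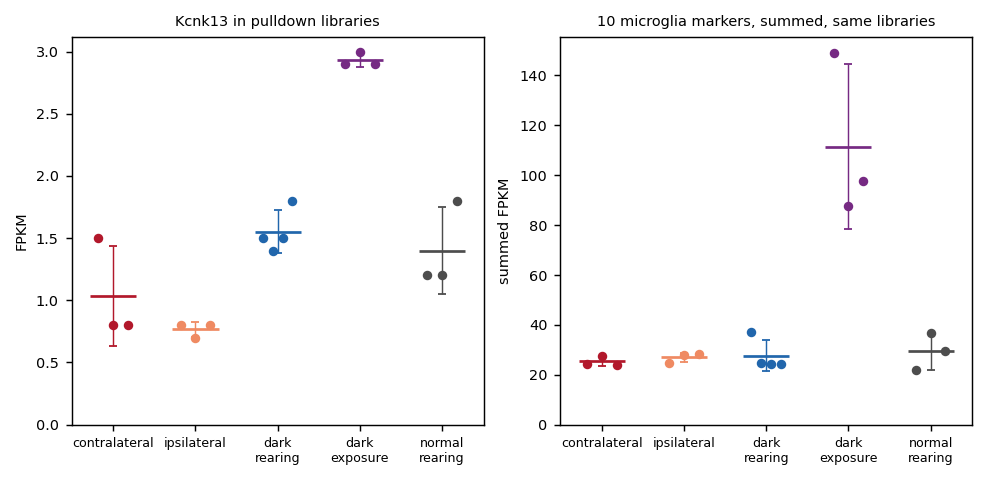
Kcnk13 level in FPKM in each pulldown library by group, with the mean and SD, beside the summed level of the microglia markers in the same libraries. Dark-exposed pulldowns have 2.9 to 3.0 FPKM of Kcnk13, above all other pulldowns, and microglia sums of 87.5 to 149.1 FPKM.

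The groups differed in which members stood highest. Of the 64 members, 36 had their highest pulldown mean in the dark-exposed group and 34 their lowest in the dark-reared group. In the inputs 23 were highest in normally reared and 17 in dark-exposed cortex, and 36 were lowest in dark-reared cortex. The same counts were not made over all genes. The 8 members with a ratio above 1 summed to 260.6 FPKM in contralateral, 295.0 in ipsilateral, 297.8 in dark-reared, 236.1 in dark-exposed and 298.7 FPKM in normally reared pulldowns. The other 56 summed to 197.0, 204.3, 173.2, 323.2 and 281.2 FPKM in the same order. Among the 8, Kcnip3 and Kcne1l varied little over the 16 pulldowns, with highest-to-lowest ratios of 1.44 and 1.68. Kcnn3, Kcng4 and Kcnn2 varied most, at 4.33, 3.72 and 3.71.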

How the data were processed

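Per the file headers, the authors deposited FPKM per gene and library, here for 24537 genes, with rounding to 0.1 FPKM. Tools named in the submitters' processing notes, without order, were DESeq2, HOMER 4.10, STAR 2.5.1b, R 3.4.3, FastQC 0.11.2 and CASAVA 1.8.2, with the build mm10. Of 22 samples 21 libraries were used. Dark-reared replicate 2 was not analysed here, and 1 column of another sample was not used. Gene names turned into dates were restored for 26 genes. The authors' averages differed from library means by at most 0.075 FPKM. Depth, estimated from value steps of transcripts under 130 bases, was 21.1 to 51.2 M reads in 20 libraries. Contralateral replicate 2 had no clear steps and the fewest genes above 0 (14092, against up to 16702). Rounding limits values near 1 FPKM.

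Values were analysed as log2(FPKM + 1), so fold changes of low genes are understated. Genes with a mean above 0.5 FPKM over all libraries (13240) entered limma 3.58.1 under R 4.3.3 (trend and robust, 2-sided), and p-values were adjusted over all of them by Benjamini-Hochberg at 0.05. Pulldown against input had the group as a covariate. The 16 pulldowns shared 1 spread in the other comparisons. Fits were tested on simulated data whose noise was independent between libraries, so deviations shared by libraries were not covered. Same-numbered monocular libraries deviated together (correlations of 0.774, 0.763 and 0.889), so the number was also fitted as a block. Named members were the 12 highest and 12 lowest ratios, the 10 highest pulldown and 6 highest input levels, and per comparison those past the threshold or the 6 with the smallest p. Other members named were chosen after their values were seen. Members and lists were chosen with earlier results of these data known. Promoters are from RefSeq (43 of 64 members matched), and gene models from GENCODE. Alternatives changed the pseudocount, filter, scaling, library weights and libraries used. Leaving out both monocular libraries numbered 2 was added after seeing the data. Some genes that fall under the naming rule are not reported here.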

Additional observations from a re-analysis of the deposited data

Results flagged for a closer look

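In 33 members the 4 dark-reared pulldowns were searched for a library far from the others, and 4 were found, where chance gives about 1 group in 20. That rate is for values without ties from rounding, and the 33 members share the same 4 libraries. Kcng1 had 0.2 FPKM in dark-reared library 5, against 0.4 FPKM in each of the others, a gap of 2 rounding steps. Kcnj14 had 2.6 FPKM in library 1, against 1.4, 1.4 and 1.5 FPKM. Kcnj3 had 1.3 FPKM in library 1, against 2.8, 2.9 and 2.9 FPKM. Kcnk3 had 0.7 FPKM in library 1, against 0.9 FPKM in each of the others, also a gap of 2 rounding steps. Library 1 held 3 of the 4 values, and it also had the lowest neuron marker sum of the dark-reared pulldowns, at 269.4 FPKM. The part of that in these values was not tested.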

How the results depend on the processing

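Against input, 8 members were higher and 52 lower with each library left out in turn, and 3072 to 3461 genes were higher and 6345 to 6986 lower. Quantile normalization moved the median of all genes to 0.01 and called 5031 genes higher and 5064 lower, and median-ratio scaling moved it to -0.03 with 4776 and 5202. Both turned the uncalled members positive. In the main fit these lay at -0.20 to -0.13, where the median of all genes was -0.32. Under quantile normalization the log2 fold changes were 0.077 (Kcnk2), 0.28 (Kcnk13) and 0.30 (Kcnd1), with Kcnd1 and Kcnk13 called higher and Kcnn1 and Kcnu1 no longer lower. Under median-ratio scaling they were 0.15, 0.081 and 0.12, with Kcnn1 no longer lower. Dark rearing called 2 genes under a pseudocount of 5, both scalings and without the monocular libraries numbered 2. It called 0 without a filter, 25 with library weights and 0 to 3 with a library left out. Members called after dark rearing stayed at 0 in all settings run. Dark exposure called 11 genes with a pseudocount of 0.1, 51 with 5, 65 without a filter, 10 with a mean above 1 FPKM, 382 with library weights, 1 in a fit of its groups alone, 49 without the monocular libraries numbered 2 and 14 to 40 with a library left out. It called 1 member with a pseudocount of 5, without a filter (Kcnk13 in both) and without the monocular libraries numbered 2 (Kcng4), 6 with library weights, and 0 to 1 with a library left out. The numbers shared by dark-exposed and normally reared libraries correlated at 0.206 and -0.085, so they share only a number, and the block gave 0 genes. Dark-reared and normally reared libraries share 1 number, so no paired fit was made there. The monocular comparison called 0 to 2 genes and 0 members with a library left out, and the block changed no call. The test over 5 groups called 174 genes under median-ratio scaling, 434 without the monocular libraries numbered 2, 7361 with library weights and 63 to 1260 with a library left out (1260 without contralateral replicate 3). It called 2 members under each scaling, 8 without the monocular libraries numbered 2, 51 with library weights, and 1 to 8 with a library left out (8 without contralateral replicate 3, 5 without ipsilateral replicate 2). Kcnk13 was among them in all settings run, at adjusted p up to 0.045.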
